A study of Homo sapiens with 8 samples.

Results

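Death receptors and their decoys were followed in IMR90 cells exposed to Nutlin-3a, across 8 genes chosen by name: FAS, TNFRSF10A, TNFRSF10B, TNFRSF10C, TNFRSF10D, TNFRSF1A, TNFRSF21 and FADD. All 8 of these genes had a row among the 18216 genes of the deposited table, and all 8 passed the filter on low values that left 14074 genes for testing. IMR90 is a human lung fibroblast line, and these cells were at passage 28 in medium with 10% serum under 3% oxygen and 5% carbon dioxide. PolyA RNA was sequenced from 4 groups of 2 libraries: cells given DMSO, the solvent, and cells given Nutlin-3a at 3 µg/mL for 6, 9 or 12 h. Nutlin-3a occupies the p53 pocket of MDM2, the ubiquitin ligase that keeps p53 low, and thereby frees p53. No label states how long the DMSO cultures were kept or whether the libraries of a group came from separate cultures. The p-values therefore set differences only against the spread of these libraries, and that spread may be technical.

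Death receptors are surface proteins of the TNF receptor superfamily that carry a death domain in their cytoplasmic tail. When a ligand such as FAS ligand or TRAIL gathers FAS, TNFRSF10A or TNFRSF10B, their death domains bind the adaptor FADD, which in turn brings in CASP8, the caspase that starts the cascade. TNFRSF10C and TNFRSF10D also bind TRAIL, but the former is held in the membrane by a lipid anchor with no death domain and the latter has a truncated one, which is why they are called decoy receptors. TNFRSF1A, the main TNF receptor, signals through TRADD and usually towards NF-kB. TNFRSF21 is a death receptor known from neurons and immune cells. FAS, TNFRSF10B and several of their relatives are textbook p53 target genes.

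Both checks of the treatment were high in all 6 Nutlin-3a libraries. MDM2 itself, a p53 target, had 1882 and 2196 normalized counts (reads divided by the authors' size factor of the library) with DMSO and 15771 to 17872 with Nutlin-3a. CDKN1A, the p21 cell cycle inhibitor, had 4670 to 4954 with DMSO and 52553 to 72462 with Nutlin-3a. Gene reads per library ran from 21.9 to 33.6 M (1e6 reads), and 3 reads, taken as the floor of detection for counting error, equal a normalized count of 2.46 to 3.75. The DMSO libraries differed from each other more than other replicates did: across 11461 genes their log2 differences had an SD of 0.174, and those of the other groups 0.118 to 0.129. Fibroblast markers were abundant, with all 12 of 12 in the table. Their summed level was 1281341 to 1311388 with DMSO, 1239857 to 1256422 at 6 h, 1467298 to 1475057 at 9 h and 1512923 to 1544736.5 at 12 h. Of 8 epithelial markers 4 were in the table, with sums of 500.4 to 509 (DMSO), 475.7 to 476.6 (6 h), 618 to 621 (9 h) and 724 to 762 (12 h), nearly all from KRT19 and CLDN4, while CDH1 stayed at 0.996 to 3.75. Endothelial markers (6 of 7 in the table) summed to 1975 to 2076 (DMSO), 1874 to 1990.1 (6 h), 1583 to 1681 (9 h) and 1438 to 1507 (12 h), mostly TEK, with CDH5 at 0 to 6.55. Immune markers (4 of 9) summed to 746 to 902 (DMSO), 760.5 to 869.6 (6 h), 929 to 992 (9 h) and 911 to 962 (12 h), mostly CD68, with PTPRC at 0.914 to 5.77. The part of these shifts in the receptor changes below was not tested. These are bulk samples, so more RNA per cell and more cells that express a gene cannot be told apart.

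Against DMSO, 6 of the 8 genes rose at every Nutlin-3a time, and they did so in 2 tiers. FAS, TNFRSF10A and TNFRSF10B stood 3.4 to 3.8-fold above DMSO by 6 h and stayed there, and TNFRSF10C rose from a very low level by 6.7-fold at 6 h and 11.7-fold at 12 h. TNFRSF10D rose by steps from 1.31-fold to 2.23-fold, and TNFRSF1A rose by 1.104 to 1.14-fold. TNFRSF21 fell at 9 and 12 h and FADD at 12 h. The tests were limma fits over all 8 libraries on log2(normalized count + 1), with Benjamini-Hochberg adjustment over all 14074 genes and a threshold of 0.05. "Rose" and "fell" are used for genes past it, and fold changes are on this scale. At 6 h 6 members rose and 0 fell, where 16.1% of all tested genes rose and 20.6% fell. At 9 h 6 rose and 1 fell, against 16.2% and 19.1% of all genes. At 12 h 6 rose and 2 fell, against 18.5% and 21.4%. The median log2 change over the 8 genes was 1.08 at 6 h, 1.37 at 9 h and 1.48 at 12 h, and that over all tested genes was −0.01, 0.01 and 0.01. The 3 comparisons share the same DMSO libraries. The 8 genes were chosen by name, but with earlier results of these data known. Their counts and medians beside those of all genes are therefore a description and not a test. In the authors' deposited table of tests, 6 members were higher at each time at the same threshold, against 12.1, 12.0 and 13.7% of genes tested there. Lower members in the authors' deposited table numbered 0 at 6 and 9 h and 1, TNFRSF21, at 12 h, against 17.0, 16.4 and 18.4% of genes.

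**Figure D1:**
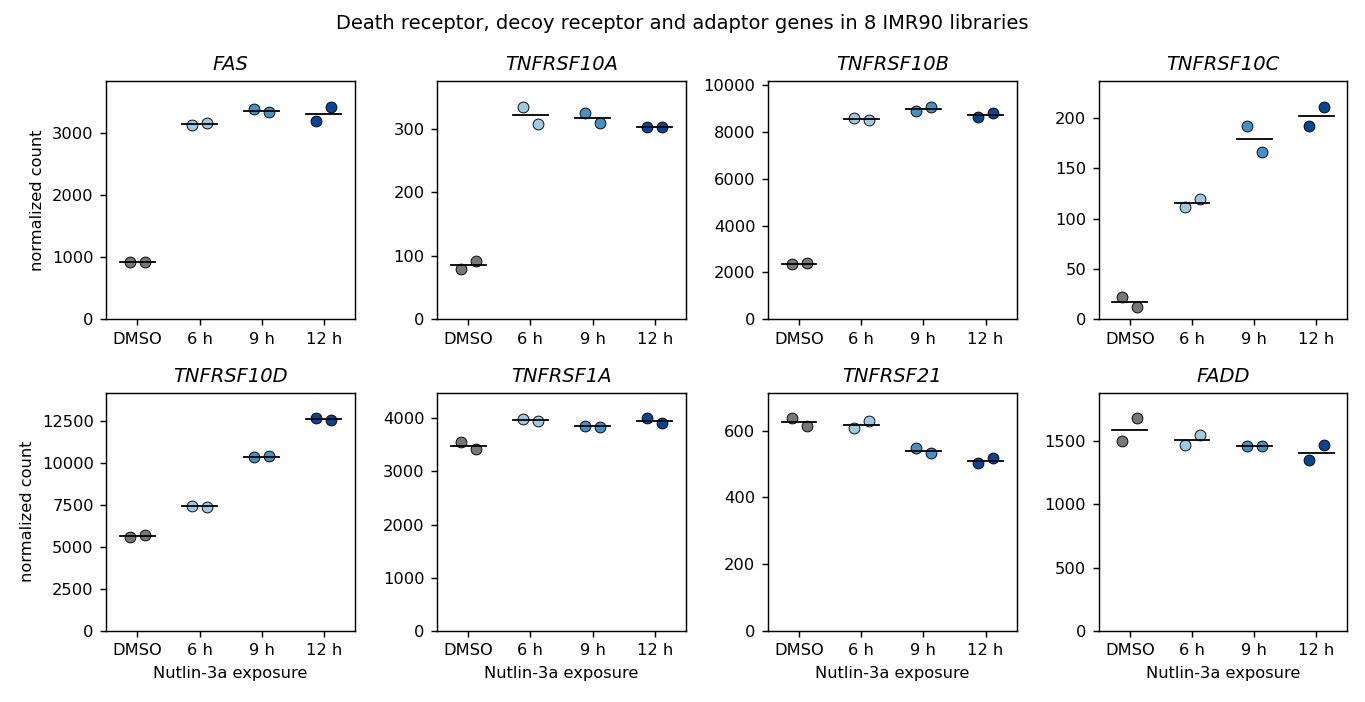
Normalized count (y axis, from 0, with its own scale in each panel) of the 8 genes in each of the 8 libraries. Points are libraries, lines are group means of 2, and the x axis gives DMSO or the hours of Nutlin-3a. FAS, TNFRSF10A and TNFRSF10B sit at 1 plateau from 6 h on, TNFRSF10D climbs from 5607 to 12688, and TNFRSF21 and FADD drift down.

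FAS, the receptor of FAS ligand, had 918 and 922 normalized counts in the DMSO libraries, 3119.5 and 3152 at 6 h, 3376 and 3324 at 9 h, and 3189 and 3418 at 12 h. Every Nutlin-3a library was above both DMSO libraries. The libraries at 9 and 12 h overlapped, and those at 6 h lay just below them. The log2 change was 1.77 at 6 h (3.41-fold, adjusted p = 9.02e-16), 1.86 at 9 h (3.64-fold, adjusted p = 2.05e-16) and 1.84 at 12 h (3.59-fold, adjusted p = 8.86e-17), each with a standard error (SE) of 0.05. FAS lies on the plus strand of chr10:88990582-89015785 (GRCh38, GENCODE) and encodes 335 codons. The gene overlaps by 758 bases with ACTA2, the smooth muscle actin gene on the opposite strand. ACTA2 changed by −0.26 ± 0.06 (adjusted p = 0.00119), −0.10 ± 0.06 (0.209) and −0.02 ± 0.06 (0.7999) at 6, 9 and 12 h, so the large rise of FAS had no counterpart in its neighbour. The antisense gene FAS-AS1 was at 0 to 3.75 in all libraries, at or near the floor. No source used here says whether counting used strand, so reads in the shared stretch cannot be assigned.

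FAS has a known p53 response region near its start. Of the 8 genes, 4 (FAS, TNFRSF1A, TNFRSF21 and FADD) had entries in the RefSeq table of promoter windows used here (GRCh38.p14, 250 bases before to 50 after each annotated start). The p53 half-site consensus, a decamer that reads the same on both strands, was searched in them with no mismatch allowed. It was found in 1 of the 3 windows of FAS and in 0 of the single windows of TNFRSF1A, TNFRSF21 and FADD. Over all 35116 windows of this length 2329 held it (6.63%). The match in FAS is shown as the only one found among these 4 genes. It begins 122 bases before the start of its window, an alternative start downstream of the main one (position −122). The stretch of 30 bases around it begins 398 bases after the end of exon 1 of the coding transcripts, inside intron 1. These bases, chr10:88991304-88991333 on the plus strand, read 5′ to 3′ with the half-site in capitals:

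FAS: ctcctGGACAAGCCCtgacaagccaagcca

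The decamer that follows the capitals directly differs from the consensus at 2 positions. A match describes these letters and does not show that p53 was bound there. The stretch also lies within an alternative exon annotated for ACTA2.

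TNFRSF10B, the signalling TRAIL receptor also called DR5, was per kb of exon the most abundant of the death receptors in all Nutlin-3a libraries. It had 2343 and 2387 normalized counts with DMSO, 8592 and 8519 at 6 h, 8914 and 9092 at 9 h, and 8645 and 8816 at 12 h. All 6 Nutlin-3a libraries were above the DMSO pair, and the times lay close together. Its log2 change was 1.85 at 6 h (3.62-fold, adjusted p = 3.06e-17), 1.93 at 9 h (3.81-fold, 1.03e-17) and 1.88 at 12 h (3.69-fold, 7.49e-18), with an SE of 0.04. By p-value TNFRSF10B ranked 5 of 14074 genes at 6 h, 7 at 9 h and 15 at 12 h, while by size of increase it ranked 55, 53 and 59. TNFRSF10A, the other signalling TRAIL receptor (DR4), was far scarcer. It had 79.2 and 92.4 normalized counts with DMSO, 335 and 308 at 6 h, 325 and 309 at 9 h, and 303 in each library at 12 h. Again every Nutlin-3a library exceeded the DMSO pair. TNFRSF10A changed by 1.90 (3.73-fold, adjusted p = 2.13e-11), 1.88 (3.67-fold, 1.08e-11) and 1.81 (3.51-fold, 1.38e-11) on the log2 scale at 6, 9 and 12 h, with an SE of 0.11. The sizes of change of FAS, TNFRSF10A and TNFRSF10B thus lay between 1.77 and 1.93 on the log2 scale at all times, although their levels differed widely.

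TNFRSF10C, the lipid-anchored decoy (DcR1), was scarce in DMSO, with normalized counts of 22.5 and 11.8 from 23 and 11 reads. It had 111 and 119 at 6 h, 192 and 166 at 9 h, and 192 and 211 at 12 h. Every Nutlin-3a library was above the DMSO pair, and those at 9 and 12 h were above those at 6 h. On the log2 scale TNFRSF10C changed by 2.74 at 6 h (6.70-fold, adjusted p = 1.56e-09), 3.37 at 9 h (10.4-fold, 3.27e-11) and 3.55 at 12 h (11.7-fold, 1.08e-11), with an SE of 0.20. With DMSO replicate 1 left out the 12 h change was 3.98, and with DMSO replicate 2 left out it was 3.11. By size of increase TNFRSF10C ranked 16, 11 and 8 of the 14074 genes at 6, 9 and 12 h. These counts are uncertain in 1 respect: 2 other genes on the same strand, AC107959.5 and AC107959.4, overlap TNFRSF10C in GENCODE, and 39.7% of the 50-base stretches of its transcript (639 of 1609) also occur in theirs. No source used here says how the authors counted such reads.

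TNFRSF10D, the decoy with a truncated death domain (DcR2), was already the most abundant of the TRAIL receptors before treatment. It had 5607 and 5724 normalized counts with DMSO, 7452 and 7398 at 6 h, 10374 and 10402 at 9 h, and 12688 and 12583 at 12 h. The 4 groups did not overlap anywhere, and each time was higher than the one before. The log2 change was 0.39 at 6 h (1.31-fold, adjusted p = 3.67e-07), 0.87 at 9 h (1.83-fold, 9.78e-13) and 1.16 at 12 h (2.23-fold, 5.47e-15), with an SE of 0.04. The 4 TNFRSF10 genes lie within 205.0 kb of chromosome 8 (GRCh38, 23020133 to 23225126), TNFRSF10C on the plus strand and the others on the minus strand. They shared 0 of their 50-base stretches with one another, so such reads would not be split among them.

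TNFRSF1A, the TNF receptor that most cell types carry, changed little in size. It had 3544 and 3421 normalized counts with DMSO, 3985 and 3946 at 6 h, 3857 and 3833 at 9 h, and 4000.5 and 3901 at 12 h. All 6 Nutlin-3a libraries were above the DMSO pair, and the gap was small beside that of FAS. TNFRSF1A changed by 0.19 (log2) at 6 h (1.14-fold, adjusted p = 0.00340), 0.14 at 9 h (1.104-fold, 0.0217) and 0.18 at 12 h (1.13-fold, 0.00376), with an SE of 0.05. The call at 9 h was lost without 9 h replicate 1 (0.14, adjusted p = 0.127) or 9 h replicate 2 (0.15, 0.103) and in limma with no intensity trend (0.0678) or with the 2 groups alone (0.0685). That at 12 h was lost without 12 h replicate 1 (0.16, 0.0557).

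TNFRSF21, also called DR6, moved down. It had 637 and 613 normalized counts with DMSO, 608 and 627 at 6 h, 548 and 533 at 9 h, and 503 and 517 at 12 h. The 6 h libraries overlapped the DMSO pair, and those at 9 and 12 h were below it. Its log2 changes were −0.02 at 6 h (adjusted p = 0.877), −0.21 at 9 h (0.0263) and −0.29 at 12 h (0.00243), with an SE of 0.07. Leaving out DMSO replicate 1 (−0.18, adjusted p = 0.0839), 9 h replicate 1 (−0.23, 0.0807) or 9 h replicate 2 (−0.19, 0.153) ended the call at 9 h. Quantile scaling (−0.15, 0.119), group weights (0.0539), the 2 groups alone (0.0604) and DESeq2 (0.106) ended it too, and it was not made in the authors' deposited table (−0.21, 0.111).

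FADD, the adaptor that links these receptors to CASP8, did not rise with its receptors. It had 1498 and 1682 normalized counts with DMSO, 1467 and 1552 at 6 h, 1462 and 1463 at 9 h, and 1349 and 1471 at 12 h. The 6 h libraries overlapped the DMSO pair, and the 9 and 12 h libraries lay below it. The log2 change was −0.07 at 6 h (adjusted p = 0.410), −0.12 at 9 h (0.169) and −0.17 at 12 h (0.0391), with an SE of 0.06. The call at 12 h rested on single libraries. It was lost when DMSO replicate 2 was left out (−0.09, adjusted p = 0.259), when 12 h replicate 1 was (−0.11, 0.338), without 6 h replicate 1 or 2 (0.0521 and 0.0522) and without 9 h replicate 1 or 2 (0.0591 and 0.0592). TMM scaling (−0.15, 0.0701), quantile scaling (−0.12, 0.154), limma with no trend (0.148) or with the 2 groups alone (0.0838), edgeR (0.0605) and DESeq2 (0.0806) did not call it, and in the authors' deposited table it was −0.17 with an adjusted p of 0.0800. Without DMSO replicate 1 FADD was called lower at 6 h as well (−0.16, 0.0413) and at 9 h (−0.20, 0.00700). In a moderated F test over the 4 groups, 7 of the 8 genes were called, against 49.9% of all genes, and FADD was not (adjusted p = 0.138).

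**Figure D2:**
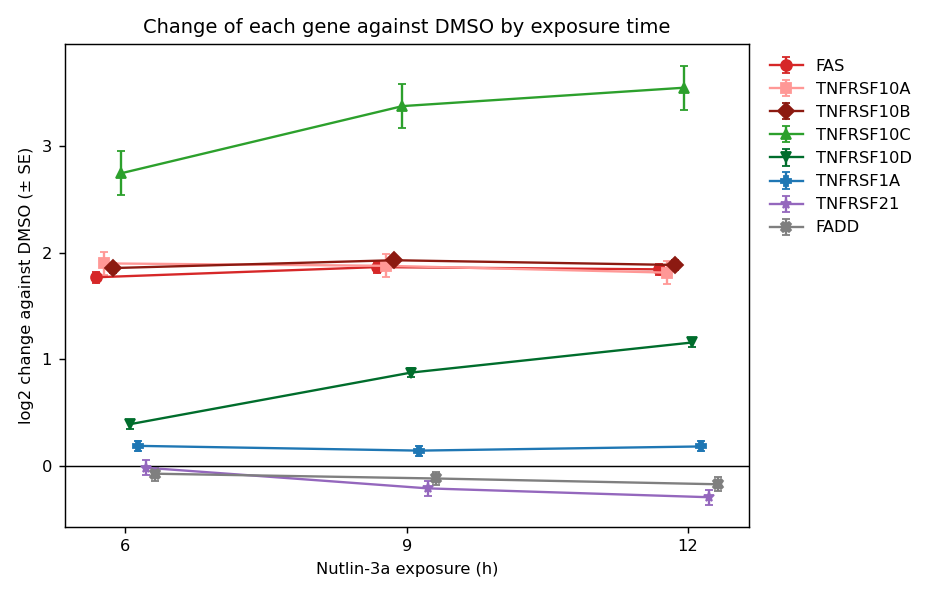
Log2 change against DMSO (y axis, bars are ± SE of the limma fit) by hours of Nutlin-3a (x axis), with the genes set slightly apart sideways for legibility. FAS, TNFRSF10A and TNFRSF10B run flat between 1.77 and 1.93, TNFRSF10C (2.74 to 3.55) and TNFRSF10D (0.39 to 1.16) climb, TNFRSF1A stays between 0.14 and 0.19, and TNFRSF21 reaches −0.29.

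The Nutlin-3a times were then compared with one another. Between 6 and 12 h the decoys TNFRSF10C and TNFRSF10D rose further and TNFRSF21 fell, so 2 members rose and 1 fell, against 14.4% and 17.1% of all tested genes. From 6 to 9 h 2 members rose and 0 fell (8.52% and 9.90% of all genes), and from 9 to 12 h 1 rose and 0 fell (1.08% and 2.92%). TNFRSF10D was called in all 3 steps, with log2 changes of 0.48 from 6 to 9 h (adjusted p = 7.88e-08), 0.28 from 9 to 12 h (0.000201) and 0.77 from 6 to 12 h (1.93e-11). The step from 9 to 12 h missed the threshold when limma was run without its intensity trend (0.28, 0.0504). TNFRSF10C changed by 0.63 from 6 to 9 h (0.0365), 0.17 from 9 to 12 h (0.786) and 0.80 from 6 to 12 h (0.00470). Its call from 6 to 9 h was lost without any of the 6 Nutlin-3a libraries in turn: the values were 0.58 (0.199) and 0.68 (0.118) without the 6 h replicates 1 and 2, 0.53 (0.248) and 0.73 (0.0907) without those at 9 h, and 0.63 (0.0642 and 0.0651) without those at 12 h. The call from 6 to 12 h was lost without 6 h replicate 1 (0.75, 0.0539) or 12 h replicate 2 (0.73, 0.0658), and both calls were lost without the intensity trend (0.211 and 0.0908). TNFRSF21 changed by −0.19 from 6 to 9 h (0.0665) and −0.28 from 6 to 12 h (0.00522). That last call was lost without 6 h replicate 2 (−0.25, 0.0513) or 12 h replicate 1 (−0.26, 0.0563), and the step from 6 to 9 h was called without DMSO replicate 1 (0.0283) or 2 (0.0279), with group weights (0.0323) and with the 2 groups alone (0.0296).

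FAS, TNFRSF10A, TNFRSF10B, TNFRSF1A and FADD were not called between any times. From 6 to 12 h FAS changed by 0.07 (95% interval −0.03 to 0.18), TNFRSF10A by −0.09 (−0.31 to 0.14) and TNFRSF10B by 0.03 (−0.06 to 0.12). Each of these intervals leaves out a change as large as that of TNFRSF10D over the same hours (0.77). At 6 h FAS had reached 96.0% of its 12 h log2 change, TNFRSF10A 105% and TNFRSF10B 98.5%. TNFRSF10C had then reached 77.4% and TNFRSF10D 33.7%, and at 9 h these shares were 95.1% and 75.6%. Since the DMSO culture time is not given, hours of Nutlin-3a and hours in culture cannot be told apart.

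To compare levels between genes, normalized counts were divided by the length in kb of the exons of coding transcripts (union of exons in GENCODE). In DMSO the order per kb was TNFRSF10D (1601 ± 23.3, SD, n = 2 here and below), TNFRSF1A (1169.7 ± 29.3), FADD (864 ± 70.7), TNFRSF10B (570.4 ± 7.54), FAS (356 ± 1.08), TNFRSF21 (174 ± 4.69), TNFRSF10A (31.6 ± 3.44) and TNFRSF10C (9.98 ± 4.39). No neighbours in that order overlapped, but with the length of the principal transcript TNFRSF1A (1567 ± 39.3) overlapped TNFRSF10D. The untreated cells thus held more mRNA per kb of the decoy TNFRSF10D and of the adaptor FADD than of either TRAIL death receptor. At 6 h TNFRSF10D (2099 ± 10.8) and TNFRSF10B (2064 ± 12.3) were near each other, followed by TNFRSF1A (1332 ± 9.17), FAS (1214 ± 8.84), FADD (819.95 ± 32.5), TNFRSF21 (172 ± 3.85), TNFRSF10A (119 ± 6.97) and TNFRSF10C (67.1 ± 3.22). At 9 h FAS (1297 ± 14.1) and TNFRSF1A (1292 ± 5.57) overlapped. At 12 h the order was TNFRSF10D (3571 ± 21.1), TNFRSF10B (2106 ± 29.1), TNFRSF1A (1327 ± 23.6), FAS (1279.6 ± 62.7), FADD (766 ± 47.1), TNFRSF21 (142 ± 2.88), TNFRSF10C (117 ± 7.78) and TNFRSF10A (112 ± 0.0029). FAS and TNFRSF1A overlapped there too, and the means of TNFRSF10A and TNFRSF10C lay within the SD of the latter. With the length of the principal transcript, TNFRSF1A lay above FAS without overlap at 9 h (1730 ± 7.46 and 1307 ± 14.2) and at 12 h (1777 ± 31.6 and 1289 ± 63.1). FAS therefore passed FADD in level per kb between DMSO and 6 h.

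Within the TRAIL receptors the balance of decoy to death receptor mRNA moved in both directions. The decoys TNFRSF10C and TNFRSF10D held 72.9 and 72.7% of the summed level per kb of the 4 TNFRSF10 genes in the DMSO libraries. They held 49.7 and 49.9% at 6 h, 57.3 and 56.8% at 9 h, and 62.7 and 62.2% at 12 h. The groups did not overlap: the share was lowest at 6 h and at 12 h was still below DMSO. The summed level per kb was 2192 and 2235 with DMSO, 4367 and 4329 at 6 h, 5314 and 5344 at 9 h, and 5895 and 5917 at 12 h, so it rose at each step. TNFRSF10D made up 72.3 of the 72.9% in DMSO replicate 1, and TNFRSF10C at most 2.11% in any library. The share was chosen as a measure after the values of its genes were known, so no test is given. For 1 group of 2 libraries against another, an exact permutation test could not go below p = 0.333. Without division by length the shares were 69.9% (DMSO), 45.9% (6 h), 53.1% (9 h) and 58.7% (12 h). These are shares of mRNA and say nothing of receptors on the cell surface.

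**Figure D3:**
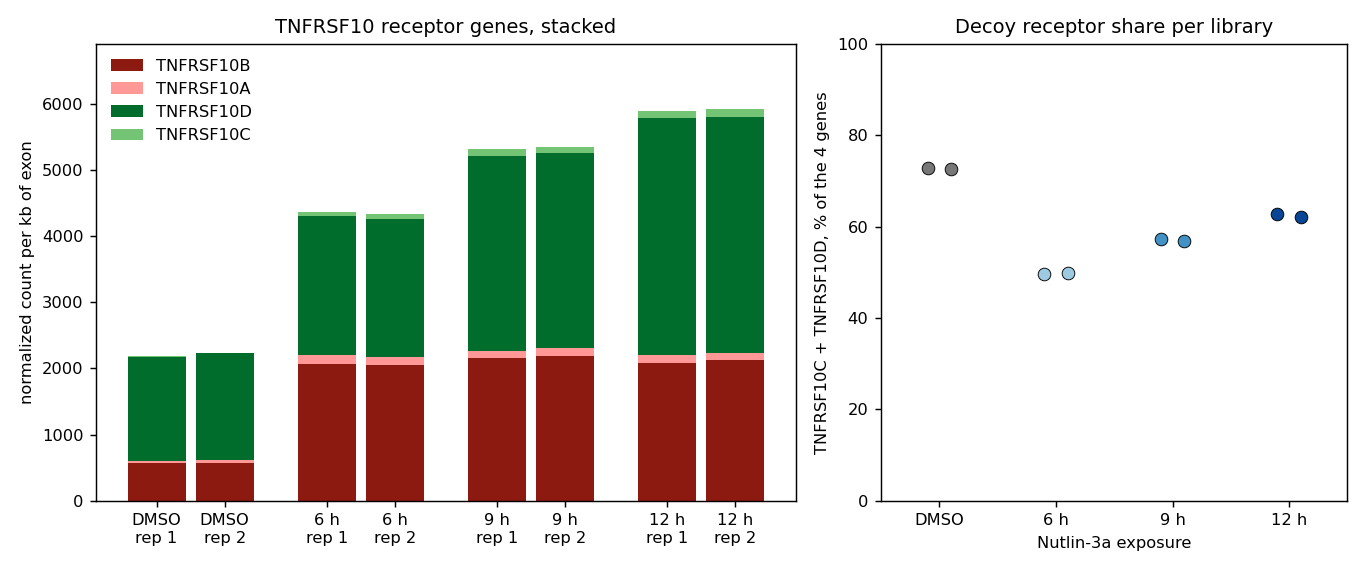
Left, normalized count per kb of exon (y axis) of the TRAIL receptor genes in each library (x axis), stacked with the signalling receptors TNFRSF10B and TNFRSF10A below in red and the decoys TNFRSF10D and TNFRSF10C above in green. Right, the decoys' percentage of each stack, with 1 point per library; it drops from 72.8% (mean) with DMSO to 49.8% at 6 h and comes back to 62.5% at 12 h.

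The same values were also set as ratios of normalized counts within libraries. TNFRSF10D over TNFRSF10B restates the decoy share, since these genes held most of the summed level. This ratio was 2.39 and 2.40 with DMSO, 0.867 and 0.868 at 6 h, 1.16 and 1.14 at 9 h, and 1.47 and 1.43 at 12 h. TNFRSF10B over FAS, 2 genes on different chromosomes, stayed between 2.55 and 2.75 in all 8 libraries. FAS over FADD was 0.613 and 0.548 with DMSO and between 2.03 and 2.36 in the Nutlin-3a libraries. Ratios of counts between genes depend on gene length, and only their differences between libraries are read here.

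For each member the 3 tested genes with the nearest profile were taken, by Euclidean distance over the 8 libraries between log2 values set against their DMSO mean, among 11453 genes with a mean of at least 50. FAS, TNFRSF10A and TNFRSF10B had the same nearest neighbours outside the 8 genes. These were RDH10 (distances 0.274, 0.201 and 0.233), a retinol dehydrogenase, and TIGAR (0.318, 0.218 and 0.318), a regulator of glycolysis and known p53 target. RDH10 is among the genes that share 50-base stretches with TNFRSF10B, of which 52 of 4141 occur in transcripts of other genes. RDH10 changed by 1.83, 1.90 and 1.87 on the log2 scale at 6, 9 and 12 h, and TIGAR by 1.89, 1.81 and 1.84. The third was ZMAT3 for FAS (0.400), SESN2 for TNFRSF10A (0.461) and EDA2R for TNFRSF10B (0.337). TNFRSF10D was nearest to DGKA (0.0683), a diacylglycerol kinase that changed by 0.43, 0.89 and 1.15, then to NYNRIN (0.272) and ISCU (0.275). TNFRSF10C was nearest to WDR63 (0.523), RRAD (0.721) and VWCE (0.832), at distances larger than any other member's. TNFRSF1A (FCHSD2 at 0.0464), TNFRSF21 (WRNIP1 at 0.0607) and FADD (HNRNPM at 0.0604) had close neighbours, as many genes change little.

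Of 8 listed genes for ligands of the TNF family, not all of them ligands of these receptors, 3 were in the table and 2 passed the filter. TNFSF10, which encodes TRAIL, had 4.89 and 3.22 normalized counts with DMSO, 5.00 and 5.77 at 6 h, 6.97 and 2.74 at 9 h, and 3.27 and 5.20 at 12 h, from 3 to 7 reads. At this depth TRAIL mRNA was at or just above the floor in every library, and no difference was detectable. FASLG and TNF were looked for but had no row in the authors' table, so they could not be tested. TNFSF12, which encodes TWEAK, was the listed ligand that changed, and TWEAK is not among the ligands named above for the 8 genes. Of the 2 tested ligands 0 were called at 6 and 9 h. At 12 h TNFSF12 rose by 0.38 ± 0.11 (adjusted p = 0.0111) and 0 fell. TNFSF12 was not called without DMSO replicate 1 (0.32, 0.0549) or 12 h replicate 2 (0.30, 0.131), in DESeq2 (0.0652) and in the authors' deposited table (0.0742).

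Among other receptors of the TNF superfamily, 19 of 22 were in the table and 11 were tested. At 6 h 4 rose and 3 fell, at 9 h 4 rose and 3 fell, and at 12 h 3 rose and 2 fell, with a median log2 change of 0.16, 0.16 and 0.11. Of all tested genes 16.1, 16.2 and 18.5% rose and 20.6, 19.1 and 21.4% fell at 6, 9 and 12 h. EDA2R, the receptor of ectodysplasin A2, had 309 and 293 normalized counts with DMSO and 1096 to 1269.6 with Nutlin-3a, and rose by 1.88, 2.07 and 2.06 (SE 0.06, adjusted p = 3.48e-16 at 12 h). TNFRSF14, the herpesvirus entry mediator, rose from 13.7 and 11.8 to 36.3 and 31.7 at 6 h, 63.7 and 53.0 at 9 h, and 83.5 and 80.1 at 12 h. Its log2 change grew from 1.35 to 2.11 and 2.59 (SE 0.22, adjusted p = 7.00e-09 at 12 h). TNFRSF1B, the other TNF receptor, fell from 215 and 237 to between 106 and 135, with log2 changes of −0.98, −0.83 and −0.78 (SE 0.12, adjusted p = 3.83e-05 at 12 h), so that the TNF receptors moved in opposite directions. RELT fell from 298 and 303 to 174 and 186 at 12 h, with log2 changes of −0.43, −0.62 and −0.74 (SE 0.10, adjusted p = 4.93e-06 at 12 h). TNFRSF25, a death-domain receptor known from T cells, was chosen after its values were seen. It was at 33.2 and 30.1 with DMSO and 25.0 and 30.7 at 6 h (−0.18, adjusted p = 0.568), and rose to 50.8 and 68.5 at 9 h (0.88, 0.00427) and 63.8 and 55.2 at 12 h (0.89, 0.00337). Its calls were lost without 9 h replicate 2 (0.67, 0.0951) at 9 h and without 12 h replicate 1 (0.78, 0.0505) at 12 h. TNFRSF11B, the soluble decoy osteoprotegerin that also binds TRAIL, was at 424 to 573 in all libraries and was not called (0.14, 0.03 and −0.08). Without 6 h replicate 2 its 6 h change was called (0.27, 0.0499).

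**Figure D4:**
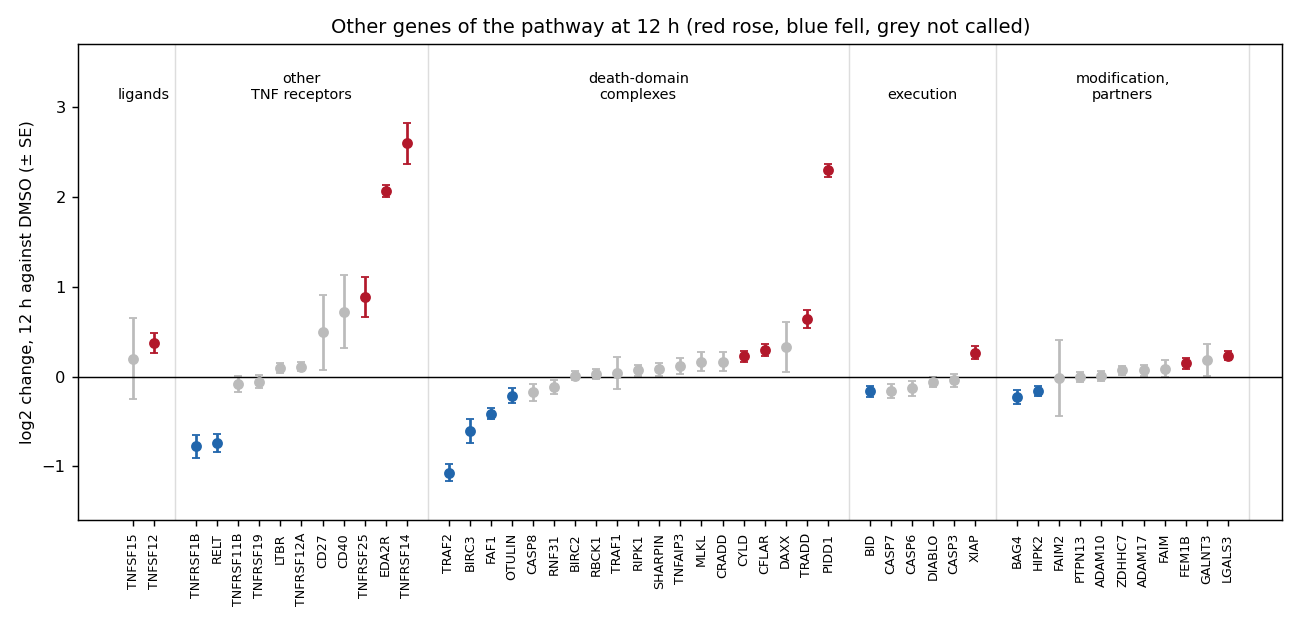
Log2 change at 12 h against DMSO (y axis, ± SE of the limma fit) of the tested genes of 5 lists (x axis), ordered by size within each list. Red points rose, blue points fell and grey points were not called; TNFRSF14 (2.59), PIDD1 (2.29) and EDA2R (2.06) stand highest and TRAF2 (−1.07) lowest.

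Downstream of the receptors, 21 of 21 genes of the death-domain complexes were in the table and 19 were tested. At 6 h 2 rose and 4 fell, at 9 h 4 rose and 4 fell, and at 12 h 4 rose and 4 fell, with medians of −0.05, 0.01 and 0.07. The shares of all tested genes were 16.1% (rose) and 20.6% (fell) at 6 h, 16.2 and 19.1% at 9 h, and 18.5 and 21.4% at 12 h. PIDD1, a death-domain protein named for its induction by p53, had 204 and 225 normalized counts with DMSO, 728 and 687 at 6 h, 989 and 1044 at 9 h, and 1104 and 1005 at 12 h. It rose by 1.72, 2.24 and 2.29 (SE 0.08, adjusted p = 1.25e-15 at 12 h). TRADD, the adaptor of TNFRSF1A, had 282 and 329 with DMSO and 301 and 297 at 6 h, and rose to 381 and 449 at 9 h and 448 and 508 at 12 h. Its changes were −0.03 (adjusted p = 0.870), 0.44 (0.00169) and 0.64 (2.85e-05), and the 9 h call was lost without 9 h replicate 2 (0.32, 0.0609). TRAF2, the TRADD partner that carries TNF signals to NF-kB, fell from 587 and 613 to 424 and 359 at 6 h, 312 and 272 at 9 h, and 283 and 287 at 12 h. Its changes were −0.62, −1.04 and −1.07 (SE 0.10, adjusted p = 1.16e-08 at 12 h). BIRC3, a TRAF2-bound ubiquitin ligase and NF-kB target chosen after its values were seen, fell, with changes of −1.45, −0.73 and −0.60 (SE 0.13, adjusted p = 0.00101 at 12 h). FAF1, a FAS-binding protein, fell, with changes of −0.33, −0.33 and −0.41 (SE 0.06, 7.57e-06 at 12 h).

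The initiator caspase and its inhibitor changed little next to the receptors. CASP8 had 346 and 333 normalized counts with DMSO, 275 and 247 at 6 h, 269.9 and 292 at 9 h, and 285 and 317 at 12 h, all below the DMSO pair. It fell at 6 h (−0.38, adjusted p = 0.00416) and 9 h (−0.27, 0.0343) and was not called at 12 h (−0.17, 0.165), with an SE of 0.10. The 6 h call was lost without 6 h replicate 2 (−0.30, 0.0650), and the 9 h call without DMSO replicate 1 (−0.24, 0.0887), 9 h replicate 1 (−0.21, 0.227) or 9 h replicate 2 (−0.33, 0.0588). The 9 h call was also lost with quantile scaling (−0.22, 0.0847), in limma with no trend (0.0679) or with group weights (0.0660), in DESeq2 (0.134) and in the authors' deposited table (0.142). CFLAR, which encodes the CASP8 inhibitor FLIP, had 855 and 857 with DMSO, 966 in each 6 h library, 1126 and 1008 at 9 h, and 1058 and 1043 at 12 h. It rose by 0.17 (adjusted p = 0.0420), 0.31 (0.000684) and 0.29 (0.00106), with an SE of 0.06. The 6 h call was lost without 6 h replicate 1 (0.142) or 2 (0.135) and without 12 h replicate 1 (0.0641) or 2 (0.0639), with the same change of 0.17. It was lost too in limma with no trend (0.0953), with group weights (0.0924) or with the 2 groups alone (0.0927), in DESeq2 (0.121) and in the authors' deposited table (0.131). CASP10, the other initiator caspase, was at 0.977 to 7.31 in all libraries, around the floor, and was not tested.

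Of 6 genes of the execution step, all 6 were tested. At 6 and 9 h 1 rose and 0 fell, and at 12 h 1 rose and 1 fell, with medians of 0.01, −0.02 and −0.10, against the same shares of all tested genes as above. XIAP, an inhibitor of caspases, rose by 0.29 (adjusted p = 0.00504), 0.32 (0.00286) and 0.27 (0.00863). Its calls at 6 and 12 h were lost without DMSO replicate 1 (0.14, 0.0674 and 0.11, 0.137), that at 6 h also without 6 h replicate 1 (0.21, 0.118), and that at 12 h also without 12 h replicate 1 (0.28, 0.0506) or 2 (0.26, 0.0698). In limma with no trend XIAP was called at no time (0.111, 0.0937 and 0.127). BID, which links CASP8 to the mitochondria, fell at 12 h (−0.16, 0.0334). This call was not made once DMSO replicate 1 was dropped (−0.11, 0.176), nor without either library at 9 h (−0.16, 0.0507 and 0.0509) or at 12 h (−0.17, 0.122 and −0.16, 0.138). Nor was it made with TMM scaling (−0.14, 0.0627), quantile scaling (−0.10, 0.208), no trend (0.0720), group weights (0.0561) or the 2 groups alone (0.0800), in edgeR (−0.14, 0.0547), in DESeq2 (0.0872) or in the authors' deposited table (0.0865).

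Of 12 genes that modify or bind the receptors, 11 were tested. At 6 h 2 rose and 1 fell, at 9 h 1 rose and 1 fell, and at 12 h 2 rose and 2 fell, with a median of 0.07 at each time, again beside 16.1 to 18.5% (rose) and 19.1 to 21.4% (fell) of all tested genes. LGALS3, a galectin that binds surface glycoproteins, rose at 12 h by 0.23 (adjusted p = 0.000952). BAG4, known as the silencer of death domains for its binding to TNFRSF1A, fell at every time, with changes of −0.31 at 6 h (0.00256), −0.21 at 9 h (0.0375) and −0.23 at 12 h (0.0205). The BAG4 call at 6 h was lost without 6 h replicate 1 (−0.26, 0.0525), and that at 9 h without DMSO replicate 2 (−0.12, 0.227), 9 h replicate 1 (−0.20, 0.157) or 2 (−0.22, 0.124), and at 12 h the values without 1 library were −0.14 (0.141, DMSO replicate 2) and −0.16 (0.237, 12 h replicate 2). Both later calls of BAG4 were lost with quantile scaling (−0.14, 0.186 at 9 h and −0.14, 0.149 at 12 h), with no trend (0.129 and 0.0942), in DESeq2 (0.0937 and 0.0615) and in the authors' deposited table (0.0976 and 0.0629). That at 9 h was lost as well with TMM scaling (0.0566), group weights (0.0524) and the 2 groups alone (0.0610). HIPK2, a p53 kinase, fell at 12 h (−0.16, 0.0288), a call lost without 12 h replicate 2 (−0.12, 0.251), with TMM scaling (−0.14, 0.0588), quantile scaling (−0.13, 0.0698) or no trend (0.164), and in edgeR (0.0604) and DESeq2 (0.0507). FEM1B, which binds the tails of FAS and TNFRSF1A, rose at 12 h (0.15, 0.0487), a call lost without each of 7 of the 8 libraries, all but DMSO replicate 2, with adjusted p-values of 0.0532 to 0.278. It was lost also with no filter on low values (0.0560), no trend (0.156), group weights (0.0624), the 2 groups alone (0.0965) or the replicate block (0.0555), in DESeq2 (0.0871) and in the authors' deposited table (0.0964). FEM1B was also 1 of the 2 genes of this list that rose at 6 h, and it was not called at 9 h. It stood highest at 6 h and not at 12 h: its mean normalized count was 2091 with DMSO, 2498 at 6 h, 2261 at 9 h and 2311 at 12 h.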

How the data were processed

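RNA-seq of 8 libraries was used. Per the submitters' processing notes, STAR, DESeq2 and the build hg19 were used, with no versions. The kit marks strand per the labels. How genes were counted, with which annotation and strand option, is not given in the sources used here. Values that the authors deposited are a normalized signal: each gene's reads over the library's size factor. The authors also deposited log2 fold changes, a Wald statistic score and p-values of DMSO against each time; the sign was turned here. Entries that name no gene held 28.2 to 29.1% of each library and were left out. Dividing by the value of 1 read gave whole numbers within 1e-06 for 100% of values, so reads were recovered for edgeR 4.0.16 and DESeq2 1.42.0 as alternatives. In the 9 h replicate 1 library this value is near 1 and an automatic check gives no verdict.

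The main test was limma 3.58.1 (R 4.3.3) with an intensity trend on log2(normalized count + 1), for genes with at least 10 in at least 2 libraries. The fit had 4 residual and 15.5 prior degrees of freedom, and p-values had Benjamini-Hochberg adjustment. It was tested on simulated data. Same-numbered replicates did not pair (correlations of −0.152 to 0.0914). The members and lists were chosen with earlier results of these data known. Named genes were the members, up to 4 called genes per list with the smallest p at 12 h, ligands, CASP8, CASP10, CFLAR, soluble decoys, MDM2, CDKN1A and the 3 nearest profiles outside the members. Gene positions and lengths come from GENCODE on GRCh38, and coordinates of the files were not converted. Counts carry no molecular identifiers, so floors cover counting error only. The 21 alternatives changed pseudocount, filter, scaling, trend, weights, groups fitted, block, libraries and tool.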

Additional observations from a re-analysis of the deposited data

Results flagged for a closer look

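Among the 8 members and the genes described by name from the ligand, receptor and downstream lists, the change against DMSO at 12 h differed from that at 6 h for 12. The test was of the difference itself, the 12 h against 6 h contrast of limma with Benjamini-Hochberg adjustment. Of all tested genes 14.4% rose and 17.1% fell in this contrast. Those of the 12 outside the members were named for a small p at 12 h or after their values were seen. The count is therefore a description and not a test. Among the receptors and decoys the difference was 0.80 ± 0.20 (SE, log2) for TNFRSF10C (adjusted p = 0.00470), 0.77 ± 0.04 for TNFRSF10D (1.93e-11) and −0.28 ± 0.07 for TNFRSF21 (0.00522). It was 1.25 ± 0.22 for TNFRSF14 (0.000203), 1.07 ± 0.22 for TNFRSF25 (0.000958), 0.18 ± 0.06 for EDA2R (0.0324) and −0.31 ± 0.10 for RELT (0.0239) among other receptors of the superfamily. Among downstream genes it was 0.57 ± 0.08 for PIDD1 (6.89e-06), 0.67 ± 0.10 for TRADD (2.95e-05), −0.45 ± 0.10 for TRAF2 (0.000993) and 0.84 ± 0.13 for BIRC3 (4.76e-05), and for the ligand gene TNFSF12 it was 0.40 ± 0.11 (0.00924). BIRC3 thus lay furthest below DMSO at 6 h. CDKN1A (0.43 ± 0.04, 2.68e-07), ACTA2 (0.24 ± 0.06, 0.00284) and several genes of nearest profile, from SESN2 (−0.41 ± 0.06, 2.33e-05) to DGKA (0.72 ± 0.05, 8.56e-10), passed the same test and are not among the 12. In DESeq2 on the recovered reads the difference was not called for TNFSF12 (0.40, adjusted p = 0.0658), EDA2R (0.18, 0.0752) and RELT (−0.31, 0.141). The difference was no longer called for TNFSF12 without 6 h replicate 1 (0.32, 0.109) or 12 h replicate 2 (0.32, 0.123). For RELT it was lost without either 6 h library (−0.29, 0.111 and −0.32, 0.0717) or either 12 h library (−0.26, 0.162 and −0.36, 0.0507). For EDA2R it was lost without any of the 6 Nutlin-3a libraries, with values of 0.16 to 0.20 and adjusted p-values of 0.0551 to 0.168.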

How the results depend on the processing

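Over 21 alternatives the results of the 8 genes kept their side of the threshold in 939 of 984 cases, lost the call in 39 and gained it in 6. In 0 cases did the direction reverse where either fit made a call. A change of sign with no call in either fit was counted among the 939. FADD at 6 h was such a case, at 0.01 without DMSO replicate 2 and −0.07 in the main result. Every call of FAS, TNFRSF10A, TNFRSF10B, TNFRSF10C and TNFRSF10D against DMSO held. At 12 h 1 member fell instead of 2 with TMM or quantile scaling, without the trend, with the 2 groups alone, and in edgeR, DESeq2 and the authors' deposited table. At 9 h 0 fell instead of 1 with quantile scaling, group weights, the 2 groups alone, DESeq2 and the deposited table. Without the trend 1 rose from 6 to 9 h (2 in the main result), 0 from 9 to 12 h (1) and 1 from 6 to 12 h (2). From 6 to 9 h 1 fell (0) with group weights or the 2 groups alone. With single libraries left out, members that fell ranged from 0 to 1 at 6 h, 0 to 1 at 9 h, 1 to 2 at 12 h, 0 to 1 from 6 to 9 h and 0 to 1 from 6 to 12 h, and members that rose from 1 to 2 in each of the steps from 6 to 9 h and from 6 to 12 h. All genes that rose ranged from 1494 (without 6 h replicate 1) to 2683 at 6 h (2263 in all libraries), from 1419 and 1430 (without 9 h replicate 1 or 2) to 2640.0 at 9 h (2273), and from 1699 (without 12 h replicate 2) to 2947 at 12 h (2603). On the recovered reads edgeR called 3006 genes higher and 2817 lower at 12 h, and DESeq2 1925 and 2507. Quantile scaling moved the share of called genes that rose at 12 h from 46.4 to 57.6%. The decoy share without division by length, added after the data were seen, was 69.9% (DMSO), 45.9% (6 h), 53.1% (9 h) and 58.7% (12 h). With the replicate number as a block, 2616 genes rose at 12 h, and no call of the 8 genes changed, while FEM1B lost its call at 12 h (0.15, 0.0555). The replicate numbers do not pair the samples. The causes of these changes were not tested. With 2 libraries per group and 4 residual degrees of freedom, calls near the threshold depend on single libraries, and TRAIL and CASP10 mRNA were too scarce at this depth to compare.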
